A study of Mus musculus with 10 samples.

Results

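The genes described here are 10 genes of ion and water transport that are used as colon genes: *Car1*, *Car2*, *Car4*, *Slc26a3*, *Slc9a3*, *Aqp4*, *Aqp8*, *Scnn1a*, *Scnn1b* and *Scnn1g*. They were chosen by symbol, and all 10 were found once among 47069 genes. RNA-seq was available for 10 libraries of C57BL/6 mouse intestinal organoids after a 50-day culture, with 2 libraries in each of 5 groups. All groups grew in Matrigel with Noggin, EGF and R-spondin-1 (NER medium). By the study's results and figure legends they carried floxed *Ppp2r1a* alleles and an *Lgr5-EGFP-CreERT2* allele, so the controls carried the floxed alleles and the inducible Cre too. Control organoids received saline. The others received DMBA (a polycyclic aromatic hydrocarbon carcinogen), tamoxifen (TAM) in a group labelled short, tamoxifen in a group labelled long, or DMBA and tamoxifen together (DMBA+TAM). Both groups given tamoxifen alone are also labelled dosage-sensitive, and the label of the DMBA group also holds the word long. The library titles hold NS for control, DSS_S for TAM short, NL for DMBA, DSS_L for TAM long and Lgr5 for DMBA+TAM. The last letter before the replicate number is thus S in control and TAM short and L in DMBA and TAM long. What short, long, S and L stand for is not given in the sources used here, and neither is the gut segment of each library, although the study describes organoids of both small intestine and colon. Markers of small intestine and of colon, given below, separated the same groups as these letters, so treatment and gut segment cannot be told apart in any comparison of DMBA or TAM long with control or TAM short. Small intestinal markers also differed between TAM short and control, as given below, and the same holds there. Cre was driven by *Lgr5*, so tamoxifen could recombine the floxed gene only in cells that used that promoter. The study's methods give an age for mice injected with tamoxifen but not for the donors of the organoids, nor is it stated that the 2 libraries of a group came from separate cultures or animals, so p-values measure the spread between these libraries, which may be technical.

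The colonic surface epithelium takes up sodium, chloride and water. Cytosolic carbonic anhydrases (*Car1*, *Car2*) and the membrane-anchored enzyme *Car4* interconvert carbon dioxide with bicarbonate and protons, which the apical sodium-proton exchanger NHE3 (*Slc9a3*) and the chloride-bicarbonate exchanger DRA (*Slc26a3*) trade for luminal salt. The epithelial sodium channel ENaC, built of alpha (*Scnn1a*), beta (*Scnn1b*) and gamma (*Scnn1g*) subunits, takes up sodium in the distal colon under aldosterone, and the aquaporins *Aqp8* and *Aqp4* pass water at the apical and basolateral membrane. *Car4*, *Slc26a3* and *Slc9a3* are also used by small intestinal enterocytes.

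By the positions in the deposited table (GRCm38.p6), *Car1* lies at chr3:14766216-14808368 on the minus strand and *Car2* at chr3:14886273-14900770 on the plus strand, 77.9 kb apart with 1 listed gene (*Car3*) between them. On chromosome 7, *Scnn1g* (121734479 to 121768475) and *Scnn1b* (121865038 to 121918514) lie 96.6 kb apart with 1 listed gene between them, and *Aqp8* (123462291 to 123468004) lies 1543.8 kb beyond *Scnn1b* with 37 listed genes between. Of the others, *Car4* lies at chr11:84957786-84966044, *Slc26a3* at chr12:31390871-31473917, *Slc9a3* at chr13:74121515-74166064 and *Scnn1a* at chr6:125320659-125344943. All values below are sums over the exons of a whole gene.

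*Aqp4* was left out of the search for start sites. RefSeq start sites (GRCm38.p6) were matched for 6 of the 10 genes (*Scnn1g*, *Scnn1b*, *Aqp8*, *Car4*, *Slc26a3* and *Slc9a3*). The 250 bases before the start of 3 of them are shown because these 3 span the patterns seen below: *Aqp8* and *Scnn1b* were at or near 0 counts in some groups and present in others, whereas *Slc26a3* was read in all of them except DMBA+TAM, where 3 counts remained. The window of *Aqp8* is chr7:123462044-123462293, that of *Scnn1b* chr7:121864788-121865037 and that of *Slc26a3* chr12:31437969-31438218, which lies inside the longer gene model of the table; all 3 are on the plus strand and read 5′ to 3′. Capitals mark matches, on either strand, to the letters TTTAT (a core of sites for CDX factors, which are homeodomain factors of intestinal epithelium) or GTTAAT (a half-site of HNF1 factors).
Aqp8: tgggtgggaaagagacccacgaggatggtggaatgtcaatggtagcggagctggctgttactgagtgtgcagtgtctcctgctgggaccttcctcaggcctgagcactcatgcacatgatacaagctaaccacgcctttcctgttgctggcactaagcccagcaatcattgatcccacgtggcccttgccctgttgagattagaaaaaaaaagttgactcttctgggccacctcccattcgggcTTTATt
Scnn1b: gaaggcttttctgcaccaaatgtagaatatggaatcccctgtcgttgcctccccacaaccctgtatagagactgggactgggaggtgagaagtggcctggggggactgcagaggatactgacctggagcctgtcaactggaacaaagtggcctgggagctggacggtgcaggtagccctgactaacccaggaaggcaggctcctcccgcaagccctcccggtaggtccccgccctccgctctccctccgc
Slc26a3: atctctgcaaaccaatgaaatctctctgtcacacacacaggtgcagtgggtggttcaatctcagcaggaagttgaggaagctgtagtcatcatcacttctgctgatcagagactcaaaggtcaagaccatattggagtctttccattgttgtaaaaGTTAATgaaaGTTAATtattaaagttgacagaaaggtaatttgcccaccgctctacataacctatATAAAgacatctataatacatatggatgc
In *Aqp8* TTTAT lies 6 to 2 bases before the start. In *Slc26a3* its reverse complement, ATAAA, lies 29 to 25 bases before the start, and GTTAAT occurs at 94 to 89 and again at 84 to 79 bases before the start. *Scnn1b* held neither, nor did *Car4* or *Slc9a3*, and *Scnn1g* held TTTAT 7 to 3 bases before its start. Of all 32536 promoter windows of this length, 37.2% held TTTAT and 6.47% held GTTAAT on either strand. The letters TGTTCT, a half-site of steroid receptors, were in 16.0% of all windows and in 0 of these 6. The motifs were chosen after the sequences had been seen, and a match is a description of letters, not a measured binding site.

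Library totals were 8828247 to 10923673 counts in 8 libraries and 1592366 and 1915270 in DMBA+TAM. *Ppp2r1a*, the gene that Cre deletes, was at 123 and 129 normalized CPM (counts scaled to TMM library totals) in the libraries labelled control, 130 and 147 in TAM short, 169 and 157 in TAM long, 167 and 152 in DMBA, and 129 and 133 in DMBA+TAM, so it was not lower in any library given tamoxifen than in both controls; the table counts whole genes and does not resolve the floxed exons, so this check says little about the labels. The 10 epithelial marker genes summed to 13400 to 22900 normalized CPM in the 8 deeper libraries and to 22.4 and 33.7 in DMBA+TAM, which therefore lacked most epithelial RNA despite the label intestinal organoid. The 10 small intestinal markers summed to 8050 to 11000 in control and TAM short and to 1.91 to 88.4 in DMBA and TAM long. Control and TAM short differed within that list: in TAM short 6 of the 10 were lower, with *Lct* at 1.96 ± 1.53 against 1410 ± 194 and *Apoa4* at 235 ± 48.8 against 2050 ± 596, and 3 were higher, with *Fabp6*, a gene of the ileum, at 8390 ± 789 against 1.53 ± 1.82 (SD, n = 2). The 4 colon markers (*Hoxa13*, *Hoxb13*, *Hoxd12* and *Hoxd13*) summed to 0 to 0.361 in control and TAM short and to 23.2 to 248 in DMBA and TAM long, with 1 marker at 0 in both TAM long libraries and 2 in DMBA replicate 1. In these bulk samples, fewer cells of a type and less RNA per cell cannot be told apart.

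**Figure D1:**
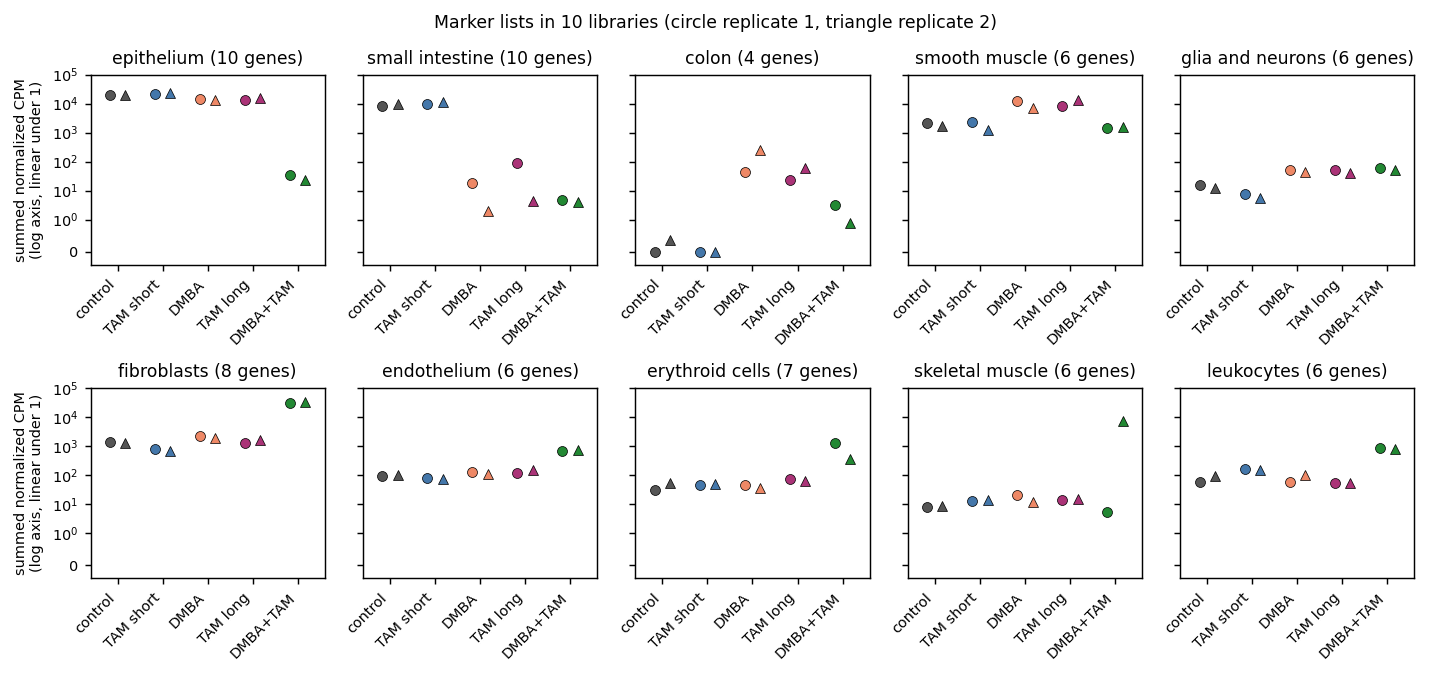
Summed normalized CPM (log axis, linear under 1) of each fixed marker list in the 10 libraries, by group; circles are replicate 1 and triangles replicate 2. The small intestinal sum is 8050 or more in control and TAM short and 88.4 or less in the other groups, the colon sum is highest in DMBA and TAM long, and the epithelial sum is 33.7 or less in DMBA+TAM.

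The carbonic anhydrases held the member with the widest range. *Car1*, a cytosolic enzyme of colonic epithelium and red cells, had 0 counts in both controls, 1 and 0 in TAM short, 68145 and 10194 in DMBA, 129033 and 28933 in TAM long, and 8 and 8 in DMBA+TAM. The DMBA and TAM long libraries thus stood far above all others, and DMBA and TAM long overlapped each other. With 3 counts per library as the floor, *Car1* was at least 10300-fold higher in DMBA and at least 19900-fold higher in TAM long than in control (adjusted p = 7.17e-05 and 5.55e-05, edgeR quasi-likelihood test with Benjamini-Hochberg adjustment over 16179 genes, the test behind every adjusted p below). *Car1* passed the filter on low counts only through groups where it was high, so these calls are a description. Without replicate 1 the bounds were 3270-fold for DMBA and 8120-fold for TAM long, and without replicate 2 they were 17400-fold and 31800-fold. Against TAM short, whose libraries held 1 count in all, TAM long was 122000-fold higher, with a 95% interval from counting error alone of 21800 to 4810000; it was 50300-fold without TAM long replicate 1, 197000-fold without TAM long replicate 2 and 61800-fold without TAM short replicate 2, and at least 18500-fold without TAM short replicate 1, which left 0 counts in TAM short. In FPKM, which is per length, *Car1* ranked 2nd and 18th of 47069 genes in the TAM long libraries and 5th and 61st in the DMBA libraries.

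*Car2*, the neighbour of *Car1* and a fast cytosolic enzyme of many epithelia, was read in every library. It had 11.2 and 21 normalized CPM in control, 4.96 and 4.53 in TAM short, 580 and 541 in DMBA, 853 and 763 in TAM long, and 6.85 and 4.84 in DMBA+TAM. No 2 of control, TAM short, DMBA and TAM long overlapped. *Car2* rose by a log2 fold change of 5.12 ± 0.27 (SE) in DMBA and 5.65 ± 0.28 in TAM long against control (34.8-fold and 50.2-fold by group means, adjusted p = 9.56e-07 and 6.05e-07), and TAM long was 170-fold above TAM short (7.4 ± 0.31, adjusted p = 6.51e-07). Of the genes compared in TAM short against control, it was one of the 2 members that fell (-1.75 ± 0.28, adjusted p = 0.003).

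*Car4*, the membrane-anchored enzyme, differed far less between groups. Its values were 221 and 217 normalized CPM in control, 357 and 401 in TAM short, 279 and 524 in DMBA, 588 and 814 in TAM long, and 8.43 and 2.64 in DMBA+TAM. Both controls lay below all libraries of the other 3 epithelial groups, and TAM short lay inside the range of DMBA. *Car4* rose by 1.68 ± 0.32 in TAM long against control (3.2-fold, adjusted p = 0.00216) and by 0.87 ± 0.32 in DMBA against control (1.83-fold, adjusted p = 0.0442). The DMBA call was lost without DMBA replicate 2 (0.35, adjusted p = 0.288), without control replicate 1 (0.89, adjusted p = 0.155), without control replicate 2 (0.86, adjusted p = 0.168), with only these 2 groups in the fit (adjusted p = 0.0564) and with limma on log2(FPKM + 1) (adjusted p = 0.0654). TAM long against TAM short gave 0.89 ± 0.31 (adjusted p = 0.0458), a call lost without TAM short replicate 1 (0.81, adjusted p = 0.199), without TAM short replicate 2 (0.97, adjusted p = 0.135), without TAM long replicate 2 (0.61, adjusted p = 0.238) and with limma (adjusted p = 0.0738 on log2(FPKM + 1)).

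**Figure D2:**
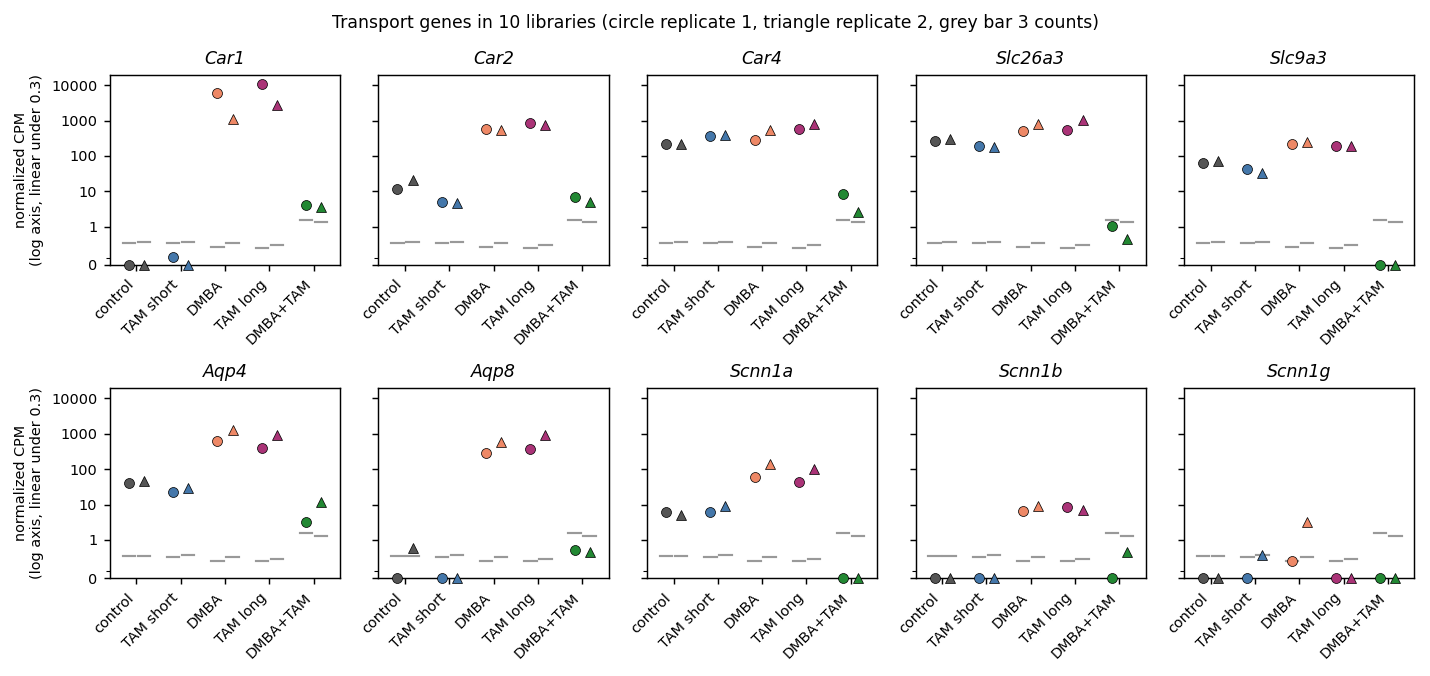
Normalized CPM of the 10 genes in each library (log axis, linear under 0.3), by group; circles are replicate 1, triangles replicate 2, and grey bars mark the level of 3 counts in that library. *Car1*, *Aqp8* and *Scnn1b* lie near the bottom in control and TAM short and well above it in DMBA and TAM long, whereas *Car4*, *Slc26a3* and *Slc9a3* are at 32 normalized CPM or more in all 4 of these groups.

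Both apical exchangers were present in the control organoids and higher in DMBA and TAM long. *Slc26a3*, the chloride-bicarbonate exchanger whose loss causes chloride diarrhea, had 268 and 302 normalized CPM in control, 192 and 182 in TAM short, 497 and 817 in DMBA and 528 and 1050 in TAM long, and 2 counts and 1 count in DMBA+TAM. It rose by 1.47 ± 0.31 in TAM long (2.77-fold, adjusted p = 0.00383) and by 1.2 ± 0.31 in DMBA (2.3-fold, adjusted p = 0.00996) against control, and by 2.08 ± 0.32 in TAM long against TAM short (4.22-fold, adjusted p = 0.00074). The call for DMBA was lost without DMBA replicate 2 (0.8, adjusted p = 0.0519) and without control replicate 1 (1.12, adjusted p = 0.072). In TAM short the values lay below both controls, but the difference did not pass the threshold (-0.61, 95% interval -1.3 to 0.08, adjusted p = 0.229).

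*Slc9a3*, the exchanger that takes up sodium for protons, had replicates within 1.33-fold of each other in control, TAM short, DMBA and TAM long. It had 63.6 and 73.8 normalized CPM in control, 42.5 and 32 in TAM short, 215 and 244 in DMBA and 185 and 194 in TAM long, and 0 counts in both DMBA+TAM libraries. These 4 groups did not overlap. It rose by 1.74 ± 0.16 in DMBA (3.34-fold, adjusted p = 4.36e-05) and 1.46 ± 0.16 in TAM long (2.76-fold, adjusted p = 0.000117) against control, and by 2.35 ± 0.16 in TAM long against TAM short (5.09-fold, adjusted p = 1.65e-05). In TAM short it fell against control by 0.88 ± 0.16 on the log2 scale (adjusted p = 0.00764), a call lost without control replicate 2 (-0.77, adjusted p = 0.0708) and without TAM short replicate 2 (-0.69, adjusted p = 0.0747).

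The aquaporins separated the same groups. *Aqp8*, the apical channel of colonic surface cells, had 0 and 5 counts in control, 0 in both TAM short libraries, 3249 and 5194 in DMBA, 4425 and 9446 in TAM long and 1 in each DMBA+TAM library. By group means it was 1450-fold higher in DMBA (adjusted p = 1.93e-05) and 2180-fold higher in TAM long (adjusted p = 1.43e-05) than in control. The control mean of 0.3 normalized CPM lies under the level of 3 counts per library (0.339 and 0.361), so these folds are not exact. They rest on the 5 control counts of a single library and were 725-fold and 1090-fold without control replicate 1. Without replicate 2 of the higher group they were 964-fold and 1270-fold. Against TAM short, TAM long was at least 1830-fold higher (adjusted p = 2.09e-05), or at least 1060-fold without TAM long replicate 2. *Aqp8* passed the filter on low counts only through DMBA and TAM long, so these calls are a description.

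*Aqp4*, the basolateral channel, was readily read in every epithelial library. It had 40.5 and 45.9 normalized CPM in control, 23 and 28.8 in TAM short, 642 and 1250 in DMBA, 398 and 922 in TAM long, and 3.16 and 11.9 in DMBA+TAM. DMBA and TAM long overlapped each other and lay above the rest. It rose by 4.45 ± 0.5 in DMBA (21.9-fold, adjusted p = 8.75e-05) and 3.93 ± 0.49 in TAM long (15.3-fold, adjusted p = 0.000171) against control, and by 4.67 ± 0.51 in TAM long against TAM short (25.5-fold, adjusted p = 0.000105). Without TAM long replicate 2 the folds of TAM long were 9.21 against control and 15.4 against TAM short. *Aqp4* is also made by enteric glia, whose 6 markers (with neuronal genes) summed to 40 to 52.5 in DMBA and TAM long and 5.41 to 15.2 in control and TAM short; the part of glial RNA in the result was not tested.

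The ENaC subunits were unequal. The alpha subunit *Scnn1a* had 6.09 and 5.05 normalized CPM in control, 6.2 and 8.81 in TAM short, 61.7 and 143 in DMBA, 43.8 and 100 in TAM long and 0 counts in DMBA+TAM. It rose by 4.19 ± 0.53 in DMBA (18.4-fold, adjusted p = 0.000282) and 3.69 ± 0.53 in TAM long (12.9-fold, adjusted p = 0.000578) against control, and by 3.27 ± 0.51 in TAM long against TAM short (9.61-fold, adjusted p = 0.00117). Without replicate 2 of the higher group these folds were 11.1, 7.86 and 5.84. The beta subunit *Scnn1b* had 0 counts in all 4 control and TAM short libraries, 75 and 81 in DMBA, 99 and 72 in TAM long, and 0 and 1 in DMBA+TAM. It was at least 22.5-fold higher in DMBA and at least 22.3-fold higher in TAM long than in control (adjusted p = 8.72e-05 and 9.08e-05), and at least 21.8-fold higher in TAM long than in TAM short (adjusted p = 0.00013). *Scnn1b* passed the filter on low counts only through DMBA and TAM long, so these calls are a description.

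The gamma subunit *Scnn1g* was too low to pass the filter on low counts. It had 3 and 29 counts in DMBA, 0 and 3 in TAM short, and 0 in every control, TAM long and DMBA+TAM library, so all but 6 of its 35 counts came from DMBA replicate 2. With no filter it was called higher in DMBA than in control (adjusted p = 0.00029), and lower in TAM long (0.000551) and in DMBA+TAM (0.0278) than in DMBA. Per length, in DMBA *Scnn1a* was at 26.6 and 53.8 FPKM, *Scnn1b* at 4.08 and 4.82 and *Scnn1g* at 0.1 and 1.06, and in TAM long *Scnn1a* was at 17.9 and 40.5, *Scnn1b* at 4.94 and 4.03 and *Scnn1g* at 0. In the 8 deeper libraries 3 counts are 0.258 to 0.378 normalized CPM, so *Scnn1g* was not detectable in TAM long at this depth rather than shown to be absent.

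The 10 genes were then read as a list. *Car1*, *Aqp8* and *Scnn1b* passed the filter on low counts only through the groups where they were high. The counts of members called and the medians, which include these 3 genes, are therefore given as a description and not as a test. In DMBA against control 9 members rose, beside 24.5% of all genes tested, and the median log2 fold change of the 9 was 4.45 against 0.07 over all genes. In TAM long against control 9 rose, beside 23.2% of all genes, with a median of 3.93 against 0.05, and in TAM long against TAM short 9 rose, beside 22.0% of all genes, and 0 fell, beside 20.3%, with a median of 4.45 (genes at 0 set to their bound) against 0.05. With scaling by library size alone the median of all genes shifted to 0.37, 0.37 and 0.27 in these 3 comparisons, and the share of calls that were higher went from 51.2%, 50.5% and 52.0% to 71.1%, 72.0% and 69.9%. The same 9 members were called in the same direction with that scaling. Segment markers moved in the same comparisons: against control 7 of the 10 small intestinal markers fell with TAM long and 7 with DMBA, and 9 fell in TAM long against TAM short, with 0 higher. Smooth muscle markers (6 of 6) and enteric glia and neuron markers (5 of 6) rose in each of the 3. Of 10 epithelial markers 4 fell in each and 1 to 3 rose. With scaling by library size, 2 of these fell and 4 rose in TAM long against control. Fibroblast markers rose in 6 of 8 with DMBA, 3 of 8 with TAM long and 7 of 8 against TAM short, with 1, 2 and 0 lower. In the same order, 2, 3 and 5 of 6 endothelial markers rose, with 0 lower. Of 6 leukocyte markers 1, 1 and 0 rose and 2, 2 and 4 fell. With scaling by library size 0, 1 and 4 leukocyte markers fell. The part of segment and of these cells in the members' values was not tested. The colon markers that passed the filter did so only through DMBA and TAM long, so their sums above stand as a description. These comparisons share control or TAM long libraries and are not independent of each other.

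**Figure D3:**
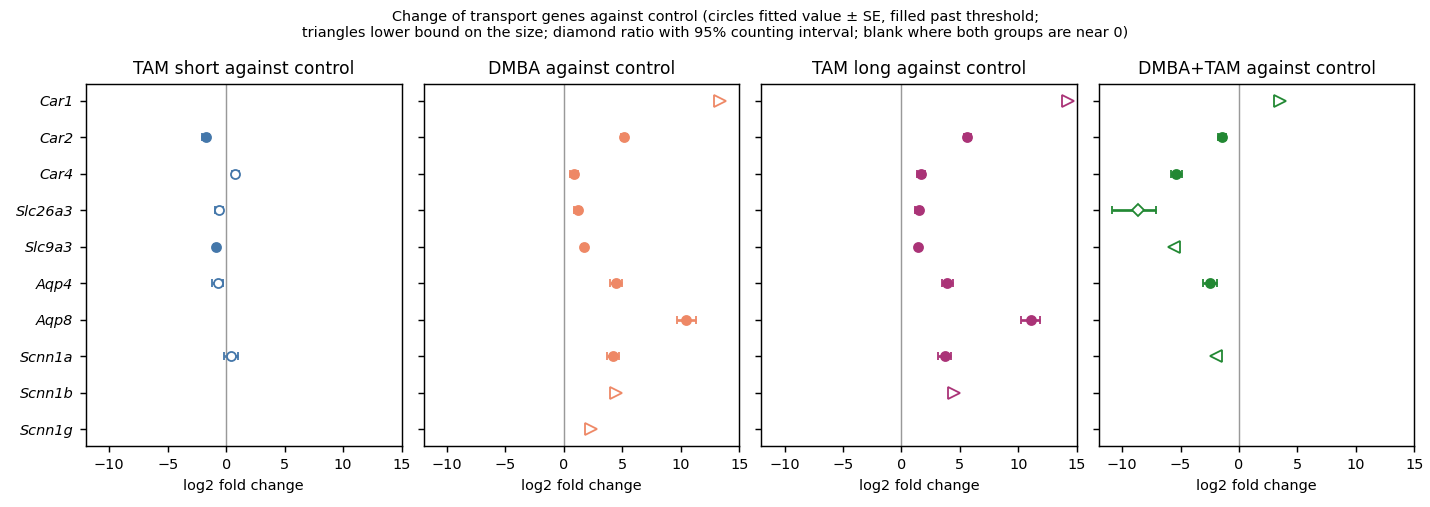
Log2 fold change of each gene against control in 4 groups; circles are fitted values with SE (filled where past the threshold), triangles are lower bounds on the size where 1 group had 0 counts, and the diamond is a ratio with its 95% counting interval. In DMBA and TAM long all plotted genes lie to the right of 0, in TAM short only *Car2* and *Slc9a3* are filled, and in DMBA+TAM the plotted genes lie to the left of 0 except *Car1*; *Aqp8*, with 5 counts in control and 2 in DMBA+TAM, is not plotted there.

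In TAM short against control 2 members fell (*Car2* and *Slc9a3*) and 0 rose, beside 7.80% of all genes lower and 6.52% higher. Of the small intestinal markers 6 of 10 were lower and 3 higher in the same comparison. Markers of other cells moved too: 4 of 8 fibroblast and 3 of 6 endothelial markers were lower, and 2 of 6 leukocyte markers higher. With scaling by library size 1 endothelial marker was lower. The part of gut segment and of these cells in the members' values was not tested. The median log2 fold change of the 6 members with a fold was -0.67, against -0.04 over all genes. With scaling by library size the share of calls that were higher went from 45.5% to 58.6%, with the same count of 2 members lower. *Car4* was higher in both TAM short libraries than in both controls (0.79, 95% interval 0.09 to 1.5, adjusted p = 0.13), *Aqp4* lower in both (-0.74, interval -1.76 to 0.29, adjusted p = 0.328) and *Scnn1a* higher in both (0.42, interval -0.87 to 1.72, adjusted p = 0.685). With only these 2 groups in the fit, *Car4* rose and *Slc26a3* and *Aqp4* fell as well (adjusted p = 2.81e-05, 0.00084 and 0.00207).

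None of the 9 tested members passed the threshold between DMBA and TAM long by edgeR, beside 1.24% of all genes higher and 1.46% lower in TAM long; at an unadjusted p under 0.05 there were 2, *Car2* and *Car4*, and DESeq2 also called 0. With no filter on low counts *Car1*, *Car2*, *Car4* and *Aqp8* were called higher and *Aqp4* lower in TAM long (adjusted p = 3.06e-08, 0.0164, 1.51e-05, 0.00522 and 0.0158), beside *Scnn1g* lower as above. *Car4* was 1.75-fold higher in TAM long without overlap (0.81, 95% interval 0.1 to 1.51, adjusted p = 0.197), and *Car2* 1.44-fold higher without overlap (0.53, interval 0.03 to 1.03, adjusted p = 0.231). *Slc9a3* was lower in both TAM long libraries (-0.28, interval -0.62 to 0.07, adjusted p = 0.364). The intervals of *Car1* (-0.74 to 2.64), *Aqp4* (-1.49 to 0.45), *Aqp8* (-0.45 to 1.62) and *Scnn1a* (-1.49 to 0.48) leave room for differences of more than 2-fold. Without DMBA replicate 2, *Car4* was called higher in TAM long (1.33, adjusted p = 0.035).

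Within DMBA and within TAM long, the 2 libraries differed from each other in a like manner. *Car1* was 5.32-fold higher in replicate 1 than in replicate 2 of DMBA and 3.91-fold higher in replicate 1 of TAM long. Replicate 2 was the higher one in both groups for *Scnn1a* (2.33-fold and 2.29-fold), *Aqp8* (2.01-fold and 2.43-fold), *Aqp4* (1.95-fold and 2.32-fold), *Slc26a3* (1.65-fold and 1.99-fold) and *Car4* (1.88-fold and 1.38-fold). *Car2* and *Slc9a3* differed by at most 1.14-fold, and *Scnn1b* went opposite ways (1.36-fold and 0.829-fold). With 2 libraries a group these ratios have no test. The small intestinal marker sum was also higher in replicate 1 of both groups (17.8 against 1.91 in DMBA and 88.4 against 4.22 in TAM long), and the colon marker sum higher in replicate 2 of both (248 against 42.4 and 62 against 23.2); their part in the ratios was not tested.

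**Figure D4:**
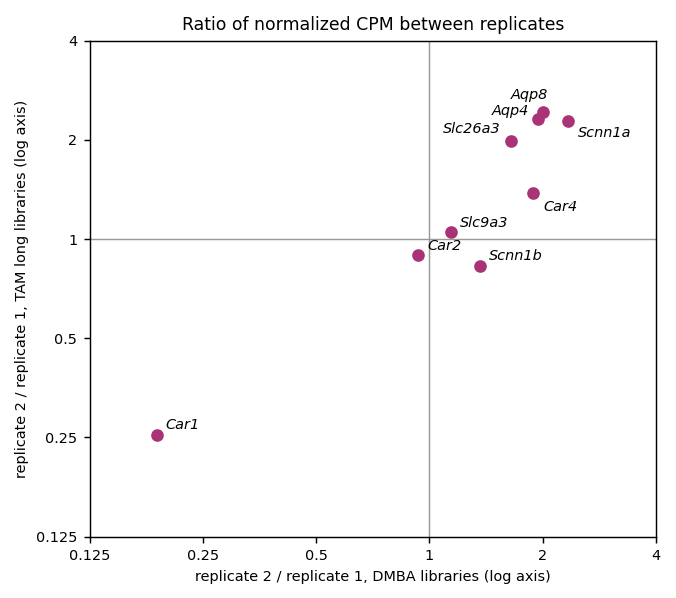
Ratio of normalized CPM in replicate 2 to replicate 1 for 9 genes, DMBA libraries on the x axis and TAM long libraries on the y axis (both log axes). *Car1* lies at 0.188 and 0.255, far to the lower left, and *Car4*, *Slc26a3*, *Aqp4*, *Aqp8* and *Scnn1a* lie to the upper right between 1.38 and 2.43. *Car2* and *Slc9a3* lie near 1, and *Scnn1b* lies at 1.36 and 0.829.

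In DMBA+TAM the members were low or unread. Against control 6 fell, beside 35.3% of all genes lower: *Slc9a3* by at least 47.4-fold (adjusted p = 2.28e-07), *Slc26a3* by 396-fold with a counting interval of 135 to 1920 (adjusted p = 8.69e-07), *Car4* by 39.6-fold (-5.36 ± 0.45, adjusted p = 3.99e-06), *Aqp4* by 5.75-fold (-2.47 ± 0.6, adjusted p = 0.00462), *Scnn1a* by at least 3.84-fold (adjusted p = 0.0251) and *Car2* by 2.76-fold (-1.47 ± 0.34, adjusted p = 0.0038). Without DMBA+TAM replicate 1 the folds of *Car4*, *Slc26a3* and *Aqp4* were 83, 648 and 3.64, and without DMBA+TAM replicate 2 those of *Car4* and *Aqp4* were 26 and 13.7. The *Scnn1a* call was lost on leaving out any of control replicate 1 (adjusted p = 0.0517), DMBA+TAM replicate 1 (0.0934) or DMBA+TAM replicate 2 (0.116). Against DMBA and against TAM long 9 members fell, beside 29.9% of all genes in each. Their medians were -6.92 and -7.03 (genes at 0 to 3 counts set to their bound or counting ratio), against -0.14 over all genes. *Car1*, *Aqp8* and *Scnn1b* passed the filter on low counts only through DMBA and TAM long, so these counts and medians are a description. With scaling by library size the median of all genes in DMBA+TAM against control moved from -0.17 to 0.31 and the share of calls that were higher from 45.1% to 62.4%, and the same 6 members fell. Epithelial marker genes were lower with them, 10 of 10 in each of these 3 comparisons. The 8 fibroblast markers summed to 30900 and 31800 normalized CPM in DMBA+TAM against 653 to 2110 elsewhere, with none at 0, and the 6 leukocyte markers to 799 to 876 against 51.1 to 154, although within that list *Cd3e*, a T cell gene, fell to 0 counts in both DMBA+TAM libraries and 4 of the 6 rose against control. The part of these cells and of missing epithelium in the members' values was not tested.

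*Car1* was the member that DMBA+TAM had and control did not. Since it passed the filter on low counts only through groups other than control, its calls here are a description. Its 8 counts in each library were 4.21 and 3.52 normalized CPM, at least 11.1-fold above control, with an adjusted p of 0.0524 that passed the threshold with DESeq2 (0.000207) and with scaling by library size (0.0434), over a range of 5.69e-12 to 0.134 among the alternatives. Red cells carry *Car1* too, and the 7 erythroid markers summed to 1210 and 358 normalized CPM in DMBA+TAM against 29.6 to 70.7 in the other libraries, of which 1 and 2 markers were at 0 in the DMBA+TAM libraries; 4 of the 5 tested rose against control. *Aqp4* had 6 and 27 counts in DMBA+TAM, and the library with 27 was the one in which 6 skeletal muscle markers summed to 7330, against 5.27 in the other; fast muscle fibres make *Aqp4*. *Car4*, which capillary endothelium makes, had 16 and 6 counts, while the 6 endothelial markers summed to 678 and 695 against 70.3 to 142 elsewhere. The part of these cells in the remaining *Car1*, *Aqp4* and *Car4* counts was not tested. At these depths 3 counts correspond to 1.58 and 1.32 normalized CPM, so *Scnn1b* and *Aqp8*, at 1 count or less a library, could not be ranked against control.

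Other genes of salt and water transport were listed to set beside the members, 63 genes in 7 lists, of which 61 were found and 50 tested. In DMBA against control 25 rose and 13 fell, in TAM long 18 rose and 12 fell, in TAM short 5 rose and 10 fell, and in DMBA+TAM 6 rose and 36 fell. The 25 include *Aqp12* and *Atp12a*, which had 0 counts in control, and *Best2*, which had 5 and 2. All of these passed the filter on low counts only through DMBA and TAM long. TAM long against TAM short gave 20 higher and 10 lower, beside 22.0% and 20.3% of all genes, and TAM long against DMBA 0 in either direction. Over all genes tested, the shares higher and lower against control were 6.52% and 7.80% in TAM short, 24.5% and 23.3% in DMBA, 23.2% and 22.8% in TAM long, and 29.0% and 35.3% in DMBA+TAM. With scaling by library size the counts against control were 5 higher and 9 lower in TAM short, 30 and 11 in DMBA, 23 and 12 in TAM long, and 7 and 32 in DMBA+TAM.

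**Figure D5:**
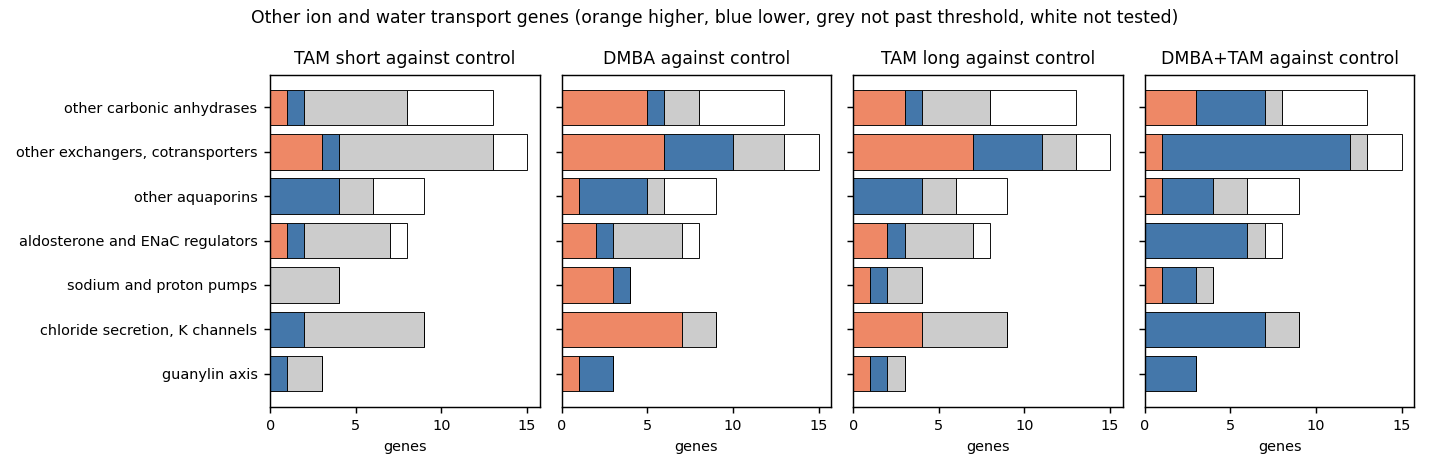
Number of genes in each list of other transport genes that rose (orange), fell (blue), did not pass the threshold (grey) or were not tested (white), for 4 groups against control. Of the 9 other aquaporins 4 are blue and 3 white in each of TAM short, DMBA and TAM long, the chloride secretion and potassium channel list has 7 genes in orange in DMBA and 4 in TAM long, and blue prevails in DMBA+TAM.

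Of 13 other carbonic anhydrases 8 were tested; 5 rose and 1 fell in DMBA, and 3 rose and 1 fell in TAM long. *Car8*, a member of the family without enzyme activity, rose most (2.7 ± 0.33, adjusted p = 0.000142 in DMBA and 2.55 ± 0.33, adjusted p = 0.000209 in TAM long). *Car13*, a cytosolic enzyme, fell from 142 ± 14 (SD, n = 2) normalized CPM in control to 32.4 ± 2.91 in DMBA and 41.6 ± 4.29 in TAM long (adjusted p = 8.87e-06 and 2.48e-05 by edgeR), opposite to *Car1* and *Car2* of the same gene cluster. In TAM short *Car13* fell as well, to 64 ± 12.2 (adjusted p = 0.00147 by edgeR), as did *Car2*. *Car3*, which lies between them and is a gene of muscle and fat, was at 1600 ± 235 in DMBA+TAM against 16.4 ± 18.9 in control and had the largest rise of its list there.

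Among the other aquaporins more fell than rose. Of 9, 6 were tested, and 4 fell in each of DMBA, TAM long and TAM short against control. *Aqp3*, a basolateral channel that also passes glycerol, went from 51.4 ± 11.8 normalized CPM in control to 4.86 ± 1.89 in TAM short, 0.157 ± 0.0955 in DMBA and 0.215 ± 0.304 in TAM long. It had the largest fall of the list in TAM short and DMBA. In TAM long its fall (-7.72 ± 0.57, 5 and 0 counts) was within the SE of that of *Aqp7* (-7.63 ± 0.69, 2 and 1 counts). In DMBA *Aqp12* was the 1 that rose, from 0 counts in control to 5 and 34 (adjusted p = 0.0255). It also had 0 counts in TAM short and DMBA+TAM. Since it passed the filter on low counts only through groups where it was high, this call is a description.

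Among 15 other exchangers, cotransporters and scaffold proteins, 13 were tested. In DMBA 6 rose and 4 fell, and in TAM long 7 rose and 4 fell. *Slc5a8*, a sodium-coupled transporter of short-chain fatty acids, had the largest rise in DMBA (2.41 ± 0.35, adjusted p = 0.000446), in TAM long (1.64 ± 0.35, adjusted p = 0.00375) and also in TAM short (2.61 ± 0.36, adjusted p = 0.00134). *Pdzk1*, a scaffold that holds NHE3 and other transporters at the brush border, was read 1145 and 839 times in the controls, 1 and 2 times in DMBA and 0 times in TAM long, while *Slc9a3* itself rose in both groups.

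The regulators of ENaC and the aldosterone response were listed as 9 genes, of which 7 were tested, and 2 rose and 1 fell in each of DMBA and TAM long, against 4 and 0 in DMBA and 4 and 1 in TAM long with scaling by library size. *Hsd11b2*, the enzyme that keeps glucocorticoids off the mineralocorticoid receptor, rose from 3.58 ± 1.32 normalized CPM in control to 87 ± 5.47 in DMBA (4.59 ± 0.35, adjusted p = 8.22e-06), 141 ± 32.6 in TAM long (5.28 ± 0.36, adjusted p = 3.86e-06) and 23.6 ± 10.5 in TAM short (2.7 ± 0.36, adjusted p = 0.00106). *Sgk1*, a kinase that raises surface ENaC, fell in all 3, from 348 ± 25.4 normalized CPM to 101 ± 16.4 in TAM short, 172 ± 1.47 in TAM long and 227 ± 48.7 in DMBA (adjusted p = 0.000198, 0.00094 and 0.0132 by edgeR), and the last fall was not called with scaling by library size. The subunit *Scnn1a* rose in DMBA and TAM long and did not pass the threshold in TAM short, so the 3 genes did not share 1 pattern.

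Of the 4 genes listed for the sodium and proton pumps, all were tested; 3 rose and 1 fell in DMBA, and 1 (*Atp1b3*) rose and 1 fell in TAM long. *Atp1b1*, a beta subunit of the sodium pump, fell from 1800 ± 122 normalized CPM in control to 809 ± 144 in DMBA and 792 ± 29.9 in TAM long (adjusted p = 0.0047 and 0.00428 by edgeR). *Atp12a*, the colonic potassium-proton pump, had 0 counts in control, 97 and 2560 in DMBA and 24 and 105 in TAM long. It was called in DMBA (adjusted p = 0.00795), where its 2 libraries differed widely, and did not pass the threshold in TAM long. The gene passed the filter on low counts only through these 2 groups, so the call is a description.

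Of 10 genes of chloride secretion and potassium channels 9 were tested, and 7 rose in DMBA and 4 in TAM long with 0 lower. *Best2*, a bicarbonate channel of colonic goblet cells, had the largest rise in DMBA (from 0.402 ± 0.229 to 17.4 ± 15.9 normalized CPM, adjusted p = 0.00154), and *Ano1*, a chloride channel also made by pacemaker cells of the gut wall, in TAM long (2.68 ± 0.37, adjusted p = 0.000338). *Best2* passed the filter on low counts only through DMBA and TAM long, so its call is a description. Smooth muscle markers were higher in the same libraries (7140 to 12800 summed normalized CPM in DMBA and TAM long against 1210 to 2280 in control and TAM short), and their part in the *Ano1* result was not tested. Of the 3 genes of the guanylin axis, which signals for salt secretion, 1 rose and 2 fell in DMBA and 1 rose and 1 fell in TAM long. *Guca2a* rose (1.6 ± 0.3, adjusted p = 0.00178 in DMBA and 1.79 ± 0.3, adjusted p = 0.00102 in TAM long) and *Guca2b* fell (-5.4 ± 0.32, adjusted p = 3.7e-06 and -4.43 ± 0.3, adjusted p = 8.05e-06), and *Gucy2c*, their receptor, fell in DMBA (-0.66 ± 0.18, adjusted p = 0.0167), a call lost with scaling by library size. *Guca2b* was also called lower in TAM short than in control, at 356 ± 19.4 against 1280 ± 112 normalized CPM.

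Levels of different members can be compared per length with the deposited FPKM. In control the order was *Car4* (280 and 266 FPKM), *Slc26a3* (125 and 136), *Slc9a3* (22 and 24.7), *Car2* (8.87 and 16.1), *Aqp4* (6.86 and 7.52) and *Scnn1a* (2.02 and 1.62), with *Aqp8*, *Car1*, *Scnn1b* and *Scnn1g* at 0.366 or less. No 2 of the first 6 overlapped. The order depends on the length used: with the length listed in the table in place of the one behind the deposited FPKM, *Car2* in control was at 5.38 and 9.77 and overlapped *Aqp4*, and in TAM long *Car2* (507 and 447) overlapped *Car4* (498 and 681), *Aqp8* (273 and 652) overlapped both, and *Slc26a3* (162 and 318) overlapped *Aqp4*. With the deposited FPKM the order in TAM long was *Car1* (12900 and 3250), *Car4* (921 and 1260), *Car2* (836 and 736), then *Aqp8* (297 and 710) and *Slc26a3* (304 and 596), which overlapped, *Aqp4* (83.3 and 190) and *Slc9a3* (79 and 81.7), *Scnn1a* (17.9 and 40.5), *Scnn1b* (4.94 and 4.03) and *Scnn1g* (0). Thus 2 genes among the lowest in control, *Car1* and *Aqp8*, were the first and within the first 5 in TAM long. In DMBA *Car1* again led (7440 and 1220), followed by *Car4* (460 and 752) and *Car2* (599 and 486), which overlapped.

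For the 3 members with the highest mean normalized CPM, which is not per length (in mean FPKM *Slc26a3* was 4th of the 10, after *Car2*), the genes outside the list whose log2 normalized CPM was most alike over the 10 libraries were looked up among 11044 candidates averaging 50 or more counts. The nearest to *Car1* were *Stard5* (Pearson r = 0.9938), *Fam129a* (0.9826) and *Nbeal2* (0.9812). The nearest to *Slc26a3* were *Gprc5a* (0.995), *Rasef* (0.9945) and *Arhgef38* (0.9944), and the nearest to *Car4* were *Hspa4l* (0.9954), *Mafk* (0.9937) and *Cmas* (0.9918). The libraries behind each r share group, depth and epithelial content, and the DMBA+TAM libraries lie far from the rest for *Slc26a3* and *Car4*, so these values describe likeness over 5 groups of 2 libraries and carry no test.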

How the data were processed

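RNA-seq was performed on 10 organoid libraries in 5 groups, assigned from the protocol in each label. By the study's methods, the authors mapped reads with TopHat (build GRCm38.p6 in the submitters' notes), counted reads per gene with HTSeq, and deposited raw counts and FPKM of all libraries in a single table. The deposited FPKM equal counts per total and per a length that is the same in all libraries but up to 11.43 times shorter than the listed length, so they were used to compare levels between genes and in limma. Columns of the authors' own comparisons, which hold fold changes and p-values, were not used. Of 47074 lines, 5 held no counts.

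Counts were tested with edgeR 4.0.16 (R 4.3.3; filterByExpr, TMM, quasi-likelihood fit of 5 group means over all 10 libraries, Benjamini-Hochberg over 16179 genes, threshold 0.05). Standard errors are the log2 fold change over the square root of F. With 0 counts in a group, folds are lower bounds against 3 counts per library, and with 1 to 3 counts ratios carry an exact 95% counting interval; intervals and floors cover counting error only. On simulated data for DMBA against control with 200 of 16179 genes changed 4-fold, edgeR recovered 75.5% with 8.48% false calls. Alternatives were DESeq2 1.42.0, limma 3.58.1 on log2(FPKM + 1) or log2(FPKM + 0.1), scaling by library size, no filter on low counts, a fit of only both groups compared, a block for the replicate number, each replicate left out, and a fit without the DMBA+TAM libraries. Members, lists and tests were chosen with earlier results of these data known. Genes of the comparison lists that are not reported here were left out of every count and sum. All 10 members are named, other lists by counts, with some of the genes of largest rise or fall. Library totals were 1592366 to 10923673 counts, which sets the precision of low genes. Python 3.11.15 with pandas 2.3.3 and matplotlib 3.10.9 drew the plots.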

Additional observations from a re-analysis of the deposited data

How the results depend on the processing

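The members called kept direction under the alternatives run: 7 to 10 were higher in DMBA against control, 9 in TAM long against control and 8 to 9 in TAM long against TAM short, and 9 to 10 were lower in DMBA+TAM against DMBA and 9 against TAM long. The counts of 10 include *Scnn1g*, which was tested only with no filter. Counts moved in the other comparisons. In DMBA+TAM against control 1 member (*Car1*) was called higher, in place of 0, with DESeq2, scaling by library size, no filter, only the 2 groups, the replicate block and limma at either pseudocount. In TAM short against control 1 was called higher with DESeq2, no filter and only the 2 groups, 4 were lower with no filter and with only the 2 groups, and 1 to 2 were lower when a replicate was left out. In TAM long against DMBA 4 were higher and 2 lower (*Scnn1g* among them) with no filter, and 0 to 1 higher when a replicate was left out. Some signs reversed when a replicate was left out: for TAM long against DMBA, *Car1* ranged from -0.35 to 2.61 (negative without TAM long replicate 1), *Slc26a3* from -0.32 to 0.68 (negative without DMBA replicate 1, at -0.05, or TAM long replicate 2), *Aqp4* from -1.25 to 0.04 and *Scnn1a* from -1.23 to 0.22 (positive without DMBA replicate 2), *Aqp8* from -0.2 to 1.17 (negative without TAM long replicate 2) and *Scnn1b* from -0.22 to 0.22 (positive without DMBA replicate 2, or at 0.11 without TAM long replicate 2, and 0.01 with library size or limma). For DMBA+TAM against control, *Aqp8* ranged from -0.32 (without control replicate 1) to 4.98. The cause was not tested. With 1 library left in a group, it is assumed to vary like the others.

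Over all genes, calls for TAM long against DMBA were 437, and 870 with DESeq2, 1615 with no filter and 29 with only the 2 groups; for TAM short against control they were 2317, and 4317 with only the 2 groups. Replicate numbers share no stated source: the correlation of replicate differences was 0.26 between DMBA and TAM long and -0.041 to 0.087 between other groups, so the numbers were not taken to pair samples, and the replicate block changed no call of a member but *Car1* in DMBA+TAM against control (8.14, adjusted p = 0.000359). A fit without the DMBA+TAM libraries, added after the data were seen, left the counts of members called as they were in all 5 comparisons of the other groups. Depth limits DMBA+TAM, where 3 counts are 1.58 and 1.32 normalized CPM.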
